A study of Potamopyrgus antipodarum with 6 samples.

Results

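The mitochondrial genes COX1, ATP8 and ND3 were followed through the comparison of Lake 2 with River 1. The members are 69 windows of 100 bp on 7 contigs, of 739509 windows in the whole table. They were chosen from the regions that the study called as differentially methylated regions (DMRs) between these same pools and to which it gave 1 or more of the names COX1, ATP8 and ND3. The list used was its longer one, made at a looser p-value threshold than the one by which its methods define DMRs. Windows inside such a region, called a span here, number 36. The other 33 are flanking windows, taken outward from each span until 9 windows in a row held no read in any pool. The study widened each DMR to take in windows up to 1000 bp away whose edgeR p-value was under 0.1. The flanking windows were thus largely those without a difference on this contrast. A weaker difference in them than in the spans was therefore partly fixed in advance. The gene names come from BLAST hits in other species, so they are names by similarity, and the contigs are called here by their numbers. The names were COX1 alone on 4 contigs, COX1 and ATP8 on 2 contigs, and COX1 and ND3 on 1 contig. No sequence of these contigs was used here.

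Both groups were Potamopyrgus antipodarum, a freshwater snail that reproduces asexually where it has invaded North America. Lake 2 is Lake Washington, with no current, and River 1 is the main channel of the Snake River, with fast water. Foot tissue DNA of 10 snails was combined into each pool, and 3 pools were made per site. Wild snails were taken from rocks and wood and kept in the same laboratory conditions for some days, and no age is given. The sites differ in place as well as in current, so habitat and locality cannot be told apart. The pools are called 4, 5 and 6 for Lake 2 and 7, 8 and 9 for River 1, as the table numbers them. The titles of the River 1 samples count from 8 to 10, so the site of a River 1 column is sure and its link to a single sample is not. DNA carries no expression of marker genes, so the tissue label was not checked.

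The mitochondrial genome is a small circular DNA that is present in many copies per cell and is usually inherited from the mother. COX1 encodes the catalytic subunit of cytochrome c oxidase, the enzyme that passes electrons to oxygen at the end of the respiratory chain. ATP8 encodes a small membrane subunit of ATP synthase, and ND3 encodes a membrane subunit of NADH dehydrogenase, where electrons enter the chain. In molluscs, cytosine methylation of nuclear DNA lies mainly in gene bodies, and methylation of animal mitochondrial DNA is in general low and a matter of debate. Methylated DNA immunoprecipitation (MeDIP) counts the DNA fragments that an antibody against methylated cytidine pulls down. Because no library from before the pull-down was used here, more methylation per copy and more copies of mitochondrial DNA cannot be told apart in these values.

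The deposited values are raw counts of reads per window, which summed to between 3317802 and 4994212 per pool. Levels are given here as counts or as CPM, which are counts brought to a common library size by TMM, a method that sets the pools to a common composition. Of the 69 member windows, 67 reached 10 counts summed over the pools and entered the fit, among them all 36 span windows. The highest count of a member window in any pool was 110, below the table's maximum of 300. That maximum was exactly 300 in every pool although the totals differ, and whether counts were capped was not tested. By mean CPM, the span windows lay between the 83.1 and 97.4 percentile of all windows, with a median of 95.3. Most windows of the table are empty, and among the 151608 tested windows the median span window lay at the 77.2 percentile. Most span windows were thus well covered without standing among the most heavily covered. The lowest, on contig 18911, lay at the 17.3 percentile of tested windows. Flanking windows ranged more widely, from a few counts to the 92.5 percentile of tested windows, also on contig 18911.

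Because the study called the spans on this contrast, the difference between the sites in them is a description, and no test is given for it. Over the 7 spans together, the summed counts were 1075, 769 and 490 in pools 4, 5 and 6 of Lake 2, and 934, 1127 and 1718 in pools 7, 8 and 9 of River 1. Scaled, these were 206, 185 and 131 CPM in Lake 2 against 238, 357 and 379 CPM in River 1. Every River 1 pool lay above every Lake 2 pool, but pool 7 was closer to pool 4 than to the other River 1 pools. The means were 174 ± 39.1 CPM in Lake 2 and 325 ± 76.0 CPM in River 1 (SD, n = 3 pools), a log2 ratio of 0.90. The spans with COX1 as their only name had a log2 ratio of 0.91 between the site means, those with ATP8 among the names 1.13, and the one with ND3 0.80.

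**Figure D1:**
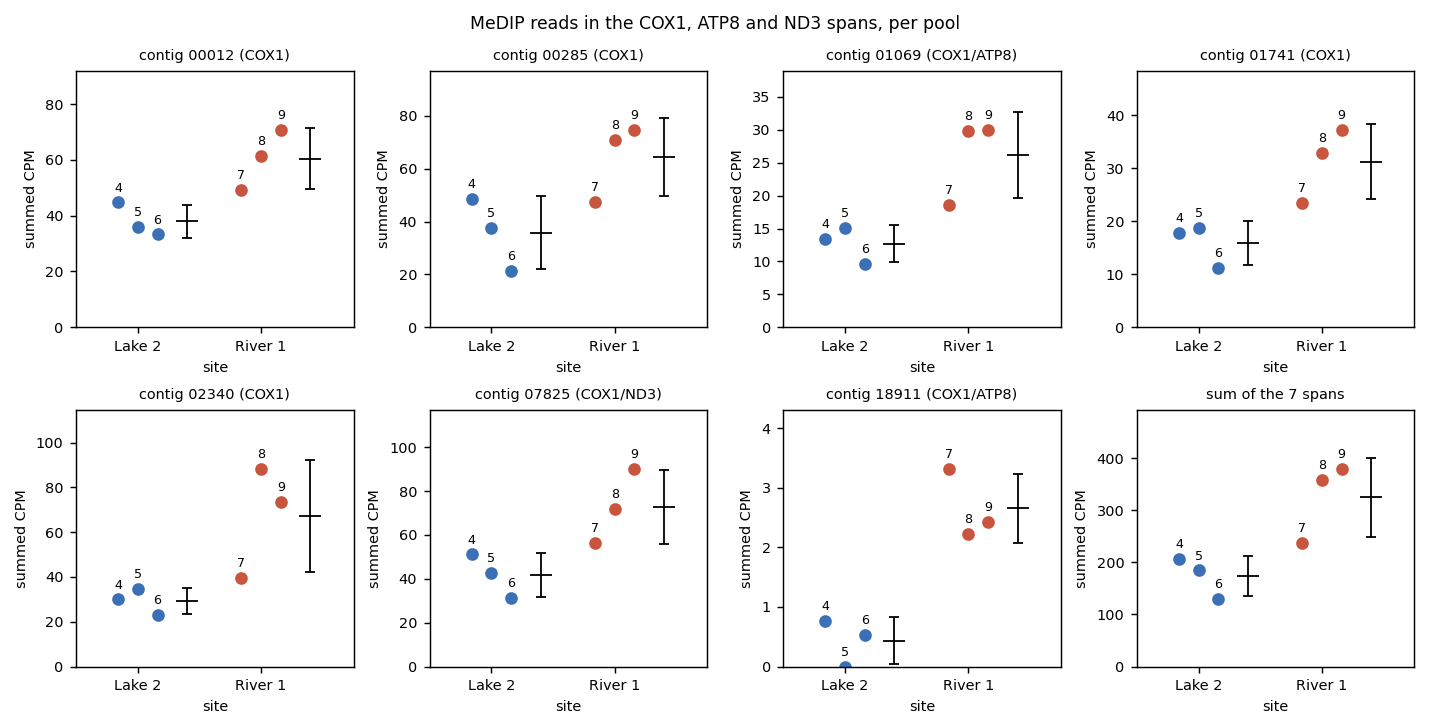
Summed CPM of the windows of each span (vertical axis, from 0) in the 3 pools of Lake 2 (blue) and the 3 pools of River 1 (red), with pool numbers above the points and the mean ± SD of each site beside them. In the sum of the 7 spans the Lake 2 pools sit between 131 and 206 CPM and the River 1 pools between 238 and 379 CPM, and in the span of contig 00285 pool 4 lies above pool 7.

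The strongest COX1 site difference by log2 ratio among the well covered spans was on contig 02340, at 4760401 to 4761000 of the joined transcriptome. Its 6 windows held 156, 144 and 87 counts in Lake 2 against 155, 278 and 334 in River 1. Pools 8 and 9 carried most of the difference, since pool 7 had 39.5 CPM against 88.2 and 73.7 CPM in pools 8 and 9, and 34.6 CPM in pool 5. The site means were 29.2 ± 5.73 and 67.1 ± 25.0 CPM (SD, n = 3 pools), a log2 ratio of 1.20. The highest window, at 4760701 to 4760800, held 36, 46 and 30 counts in Lake 2 against 49, 78 and 101 in River 1. It was the highest window of the contig in 5 of 6 pools. The window at the far end, 4760901 to 4761000, held 5, 2 and 1 counts in Lake 2 against 2, 16 and 17 in River 1. Here pool 7 was like the pools of Lake 2. At 2.25 (standard error 0.57), the log2 fold change of this window exceeded that of every other on the contig.

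On contig 00012 the COX1 span covers the first 6 of 17 windows, at 29501 to 30100. It held 233, 150 and 125 counts in Lake 2 against 193, 194 and 321 in River 1. In CPM the Lake 2 pools were at 44.8, 36.0 and 33.3 and the River 1 pools at 49.1, 61.5 and 70.8. The sites did not overlap, although pools 4 and 7 were near each other, and the log2 ratio of 0.67 was the smallest of the 7 spans. All 6 pools had their highest window at 29701 to 29800, with 63, 48 and 38 counts in Lake 2 against 56, 58 and 82 in River 1.

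The remaining 11 windows of contig 00012 behaved differently. They held 155, 51 and 13 counts in Lake 2 against 48, 28 and 77 in River 1, so the highest and the lowest pool both came from Lake 2. The log2 ratio of the site means was -0.26, and it was 0.71 without pool 4, which held more of these reads than any other pool. Across the span end, the last window inside (30001 to 30100) held 31, 10 and 9 counts in Lake 2 against 17, 17 and 38 in River 1, and the first outside (30101 to 30200) held 21, 10 and 5 in Lake 2 against 11, 6 and 20 in River 1. In the last 6 windows, from 30601 to 31200, pool 6 held 0 counts while pool 4 held 84 and pool 5 held 28. A floor of 3 counts in pool 6 equals 0.799 CPM over this stretch, so pool 4 was at least 20.2-fold higher and pool 5 at least 8.41-fold higher than pool 6 of the same lake. The River 1 pools held 28, 11 and 19 counts there. This stretch was chosen after its values were seen. The floor covers counting error only.

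On contig 00285 the COX1 span, at 648501 to 649100, held 253, 157 and 80 counts in Lake 2 against 186, 224 and 339 in River 1. Pool 4 had 48.6 CPM and pool 7 had 47.4 CPM, so this was the only one of the 7 spans in which the sites overlapped. Separation in the other spans was favoured by their choice on this contrast. The site means were 35.9 ± 13.7 and 64.4 ± 14.9 CPM (SD, n = 3 pools), a log2 ratio of 0.84. Before the span, the window at 648401 to 648500 held 54, 21 and 16 counts in Lake 2 against 24, 30 and 59 in River 1, and the first window inside held 41, 26 and 13 in Lake 2 against 28, 37 and 58 in River 1. The span therefore begins inside a covered stretch and not at an edge of the reads.

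The COX1 span of contig 01741, at 3615501 to 3616000, takes in 5 of the 6 windows of its contig. It held 93, 78 and 42 counts in Lake 2 against 92, 104 and 169 in River 1, or 17.9, 18.7 and 11.2 CPM against 23.4, 33.0 and 37.3 CPM. The sites did not overlap, and the log2 ratio was 0.97. The position of the highest window differed among the pools, with 4 different windows among the 6 pools, so this contig had a plateau and no fixed peak. The last window inside held 23, 16 and 12 counts in Lake 2 against 25, 23 and 31 in River 1, and the window outside held 3, 1 and 1 in Lake 2 against 2, 1 and 6 in River 1.

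ATP8, the ATP synthase subunit, shares its name with COX1 on contigs 01069 and 18911, so a read there cannot be given to either gene from these files. On contig 01069 the span, at 2285401 to 2285900, held 70, 63 and 36 counts in Lake 2 against 73, 94 and 136 in River 1. The means were 12.7 ± 2.84 and 26.1 ± 6.53 CPM (SD, n = 3 pools), a log2 ratio of 1.04, and in each of its 5 windows every River 1 pool lay above every Lake 2 pool. The 7 flanking windows of the contig were as well covered, with 24.6, 23.5 and 11.5 CPM in Lake 2 against 19.9, 31.4 and 30.7 CPM in River 1. There the sites overlapped and the log2 ratio was 0.46. Beside the span, the window at 2285301 to 2285400 held 20, 8 and 2 counts in Lake 2 against 9, 11 and 14 in River 1, and the first window inside held 9, 9 and 6 in Lake 2 against 12, 18 and 23 in River 1. Between these neighbouring windows pool 4 went from 20 to 9 counts, while every other pool had more counts inside the span than outside it.

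Contig 18911 was unlike the others. Its span, at 30781301 to 30781500, held 4, 0 and 2 counts in Lake 2 against 13, 7 and 11 in River 1. The ratio of River 1 to Lake 2 was 5.84, from 6 counts against 31 summed over the pools of each site. With so few counts, and with the span chosen on this contrast, the size of the ratio is uncertain. The 6 flanking windows held 343, 297 and 313 counts in Lake 2 against 321, 246 and 283 in River 1. In CPM these were 65.9, 71.3 and 83.4 in Lake 2 against 81.7, 78.0 and 62.4 in River 1, a log2 ratio of 0.01, with the sites overlapping in every flanking window. The highest window of this contig, at 30781801 to 30781900, held 110, 93 and 106 counts in Lake 2 against 105, 86 and 93 in River 1. The covered body of contig 18911 thus showed no separation of the sites, and its span rests on few reads at the edge. A body that differed would have been taken into the span by the study, so this was partly fixed by the choice. The last window inside held 1, 0 and 1 counts in Lake 2 against 9, 3 and 5 in River 1, and the first outside held 8, 4 and 4 in Lake 2 against 3, 4 and 6 in River 1.

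ND3, the NADH dehydrogenase subunit, is named beside COX1 on contig 07825, where the span lies at 14169301 to 14169900. It held 266, 177 and 118 counts in Lake 2 against 222, 226 and 408 in River 1. The means were 41.7 ± 9.86 and 72.7 ± 16.7 CPM (SD, n = 3 pools), a log2 ratio of 0.80. The sites did not overlap, but pool 4, at 51.1 CPM, was near pool 7, at 56.5 CPM. Within the span the log2 fold change was lowest at 14169501 to 14169600, at 0.51 (standard error 0.18), and highest in the last window, at 14169801 to 14169900, at 1.16 (standard error 0.24). The flanking windows before and after the span, with few reads, were at 0.97 and 0.72. The highest window by mean count, at 14169601 to 14169700, held 54, 43 and 27 counts in Lake 2 against 53, 53 and 94 in River 1.

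**Figure D2:**
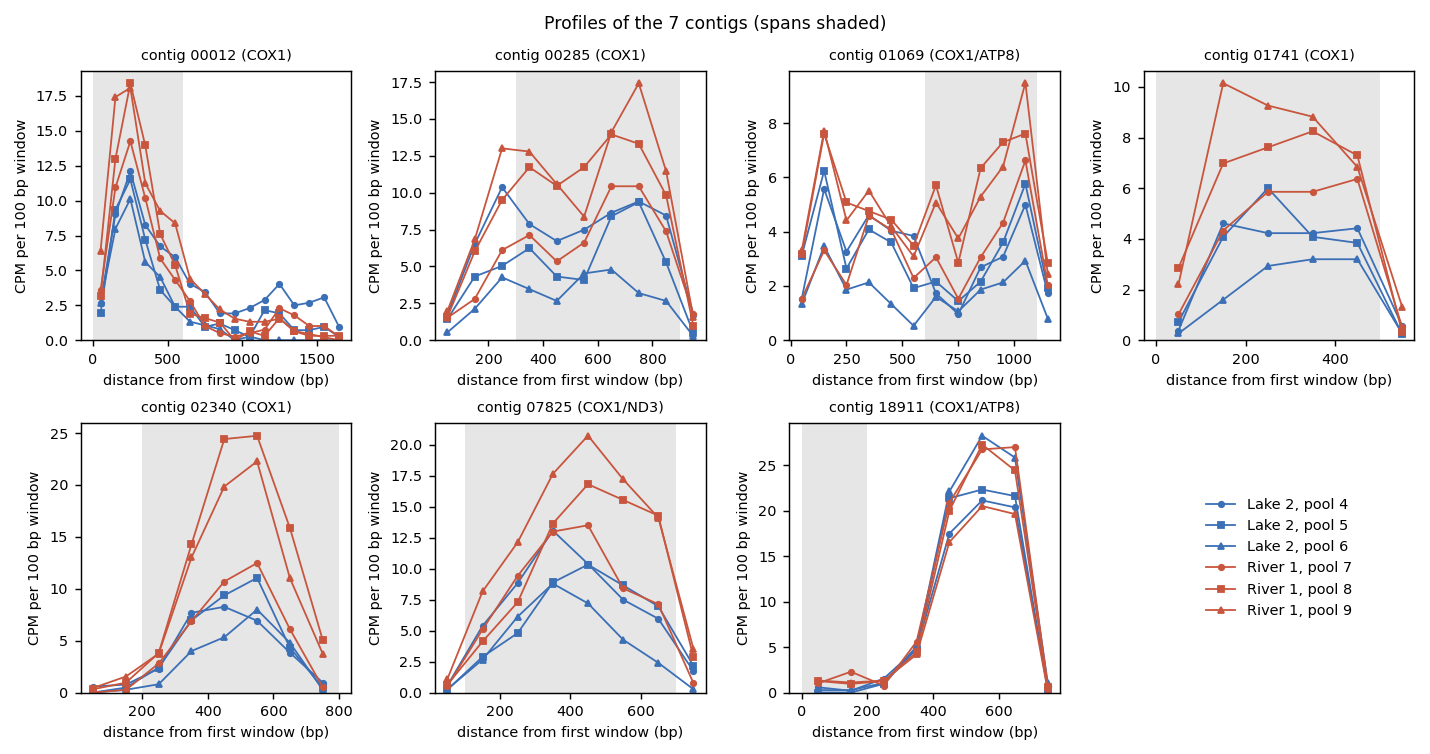
CPM per window of 100 bp (vertical axis, from 0) against the distance in bp from the first window of each contig, with a line for each of the 3 Lake 2 pools (blue) and the 3 River 1 pools (red) and the span shaded. On contig 18911 the lines of both sites run together through the covered body, where counts reach 110, while on contig 02340 pools 8 and 9 stand above the other 4 pools.

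In edgeR's quasi-likelihood fit over all tested windows, 13 of the 36 span windows passed a threshold of 0.05 after Benjamini-Hochberg adjustment, each higher in River 1. Of all tested windows, 0.305% were called in that direction and 1.11% in the other, or 1.42% together. The rule chose the spans on the same contrast, so this count is no support for them. Of the 31 flanking windows tested, 0 were called by edgeR. The study had taken nearby windows with a low p-value into the spans, so this was largely fixed in advance too. The called windows were 5 on contig 02340, 3 on 07825, 2 on 00285 and 1 each on 01069, 01741 and 18911, and contig 00012 had none. Leaving out either pool 6 or pool 9 left 3 member windows called, beside 0.209% and 0.317% of all windows tested in those fits. Leaving out pool 8 left 7, beside 0.467%, and leaving out pool 7 gave 27, beside 3.51%. Without pool 5 it was 16, beside 1.90%, and without pool 4 it was 15, beside 0.348%. The share over the table thus moved the same way as the count of members, except without pool 4. There the share fell and the count of members did not. DESeq2 called 0 of the member windows, beside 0.0066% of all tested windows.

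The log2 fold changes of the span windows were all above 0 and ran from 0.51 to 3.03. Their median was 0.87, beside -0.01 over all tested windows, of which 49.6% were above 0. In 22 of the 36 span windows every River 1 pool lay above every Lake 2 pool, beside 7.75% of all tested windows. The flanking windows had a median log2 fold change of 0.20, with 20 of 31 above 0, and 2 of them had every River 1 pool above every Lake 2 pool. By contig, the flanking windows differed widely. Their median log2 fold change was -0.29 on contig 00012 and -0.06 on 18911, but 0.45 on 00285 and 0.42 on 01069. On 07825, 01741 and 02340, with 2, 1 and 1 flanking windows tested, it was 0.85, 0.97 and 0.79, beside 0.76, 0.97 and 1.21 in the span windows of the same contigs. Adjacent windows share reads, so they are not independent measurements. Lower values outside the spans than inside were favoured by the choice of the spans on this contrast.

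**Figure D3:**
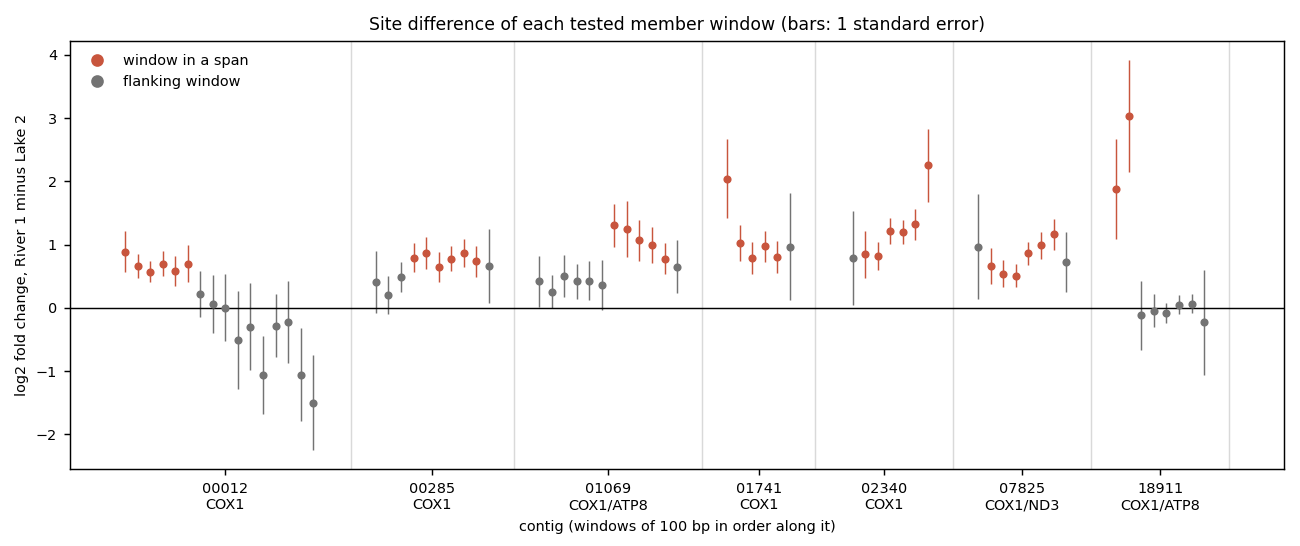
Log2 fold change of River 1 minus Lake 2 (vertical axis) for the 67 tested member windows in their order along each contig, red inside the spans and grey in the flanking windows, with bars of 1 standard error. All 36 span windows lie above 0, between 0.51 and 3.03, and the flanking windows of contig 00012 lie below 0 toward the contig's end.

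The pools of the same site differed from each other at these contigs, and in much the same order from contig to contig. All 7 contigs carry the name COX1 and may share reads, which was not tested, so they are not shown to be independent measurements. Pool 6 was the lowest of the Lake 2 pools in 6 of the 7 spans and pool 5 in the other one. Pool 7 was the lowest of the River 1 pools in 6 spans, and pool 9 was the highest of all 6 pools in 5. Within Lake 2, the highest pool had between 1.34 and 2.28 times the CPM of the lowest in the 6 spans with reads in all pools. Within River 1, this ratio lay between 1.44 and 2.23 over the 7 spans. The composition of the sum moved less in the 6 spans with reads in all pools. Contig 07825 made up between 20.1% and 24.7% of the CPM of the 7 spans in each pool. Contig 01741 made up between 8.57% and 10.1%, and 01069 between 6.51% and 8.34%. Contig 00012 ranged from 17.2% to 25.5% and 00285 from 16.3% to 23.5%. The widest in percentage points was 02340, between 14.5% in pool 4 and 24.7% in pool 8. Contig 18911, with few reads, ranged from 0% to 1.39%.

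The spread within sites was measured in each tested window as the Pearson chi-square of the counts around the site means over its degrees of freedom, which is near 1 for counting error alone. Its median was 2.11 in the span windows and 2.03 in the flanking windows, beside 0.93 over all tested windows. Of the 36 span windows, 31 were above the median of all tested windows and 23 above their upper quartile of 1.51. Whether this spread grows with the count was not tested. The mean level was above the tested median in 31 of the 36 span windows. The flanking windows of contig 00012 had low mean counts, between 3.5 and 12.2 in those tested, beside a median of 9.17 over all tested windows. By contig, the median was highest in the span of 02340, at 3.94, and in the flanking windows of 00012, at 3.85. It was 1.08 in the span of 01069, 1.04 in that of 01741 and 1.09 in the flanking windows of 18911.

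Whole contigs were also set among the 27521 stretches of the table that lie between runs of empty windows and have a summed count of at least 60. By CPM per window, the 7 contigs lay between the 65.3 and 84.4 percentile of these stretches. By the log2 ratio of River 1 over Lake 2, the chosen contrast, contig 02340 lay at the 99.2 percentile, and 00285, 01069, 01741 and 07825 between 95.5 and 98.2. Contig 00012 was at 89.1 and contig 18911 at 53.7. The pools that were most often highest and lowest were then compared within each site, a choice made after the values were seen. Pool 4 had 2.42 times the CPM of pool 6 on contig 00285, the 96.7 percentile of all stretches, where the median was 1.02. The same ratio was 2.03 on contig 00012, 1.81 on 01069, 1.67 on 07825, 1.61 on 01741 and 1.34 on 02340, the last at the 79.0 percentile. In River 1, pool 9 had between 1.43 and 1.90 times the CPM of pool 7 on these 6 contigs, beside a median of 0.99 over all stretches. Contig 18911 was on the other side in both, with 0.794 for pool 4 over pool 6 and 0.762 for pool 9 over pool 7. As whole contigs, 00012, 00285, 01069 and 18911 had overlapping sites, and 01741, 02340 and 07825 did not. The share of all stretches without overlap is not given here, and these contigs were chosen on this contrast.

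**Figure D4:**
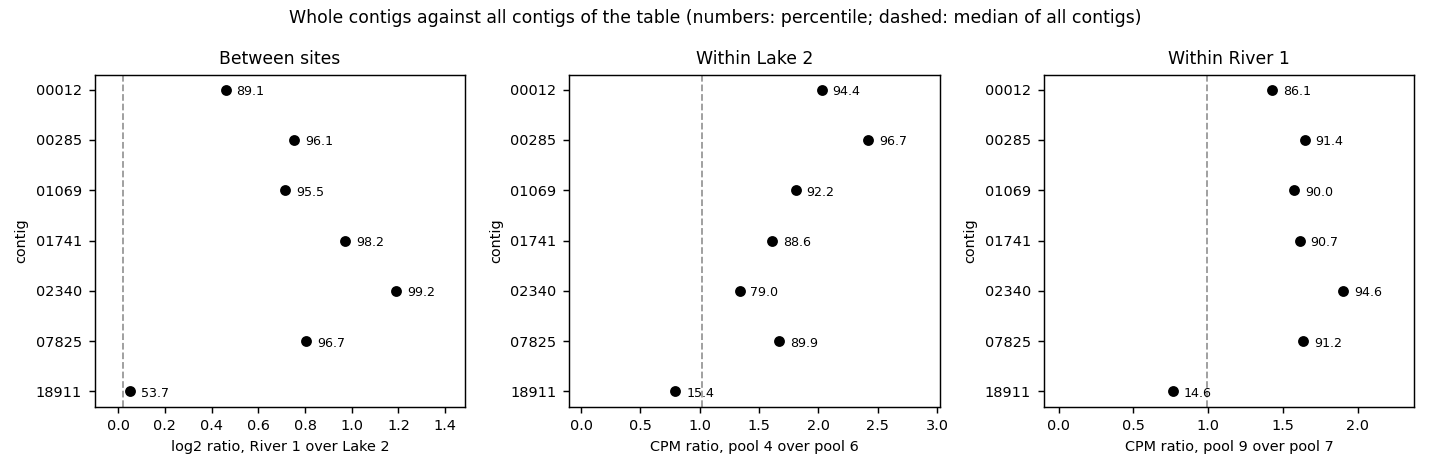
The 7 whole contigs (vertical axis) by the log2 ratio of River 1 over Lake 2 (left), the CPM ratio of pool 4 over pool 6 within Lake 2 (middle) and of pool 9 over pool 7 within River 1 (right), with the percentile among the 27521 stretches printed beside each point and the median of all stretches dashed. Contigs other than 18911 lie to the right of the dashed line in all 3 panels, and 18911 lies to the left of it in both ratios within a site.

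The names COX1 and ATP8 also occur on 2 contigs that the study listed only for its other comparison, of Lake 1 with River 2. The list for that comparison also gives COX1 on member contigs, among them 00012 and 02340, and these were left out here. The regions of the 2 contigs were called on other pools. Because they are absent from the list for Lake 2 and River 1, any region of these names called on these pools was left out. A lack of calls between Lake 2 and River 1 was thus partly fixed by the choice. The p-values below describe these regions and are no independent test of COX1 and ATP8. On contig 24018 (COX1 and ATP8, 37293501 to 37294100) the counts were 119, 113 and 104 in Lake 2 against 100, 160 and 191 in River 1. The means were 25.9 ± 2.65 and 39.4 ± 12.8 CPM (SD, n = 3 pools), a log2 ratio of 0.61 (two-sided exact permutation p = 0.3, adjusted p = 0.3 over 3 regions). Pool 7, at 25.5 CPM, lay among the Lake 2 pools, and pools 8 and 9 lay above them, at 50.7 and 42.1 CPM. On contig 02055 (ATP8 and COX1, 4225701 to 4226300) the counts were 46, 29 and 13 in Lake 2 against 22, 43 and 60 in River 1, a log2 ratio of 0.75 with overlapping sites (two-sided exact permutation p = 0.3, adjusted p = 0.3). By CPM, pool 6 was the lowest pool of Lake 2 on contig 02055 but the highest of Lake 2 on contig 24018, and pool 7 was the lowest of River 1 on both. The smallest p-value that 3 pools against 3 allow is 0.1.

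In the quasi-likelihood fit over all windows, 0 windows of these 2 regions passed an adjusted p-value of 0.05 by edgeR, and 5 of the 11 tested passed an unadjusted p-value of 0.05, as did 14.3% of all tested windows. The lowest adjusted p-value, at 37293501 to 37293600 on contig 24018, was 0.0805 by edgeR. The log2 fold change there was 0.62 (standard error 0.19), from 37, 43 and 36 counts in Lake 2 against 40, 55 and 63 in River 1. DESeq2 also called 0 windows there. Without pool 7, 3 windows of the regions passed, beside 3.51% of all windows then tested. With a minimum of 30 counts over the pools, 1 window did, beside 2.34%. The third region, on contig 51823 at 73928801 to 73929000, has the name NUO5, that of a NADH dehydrogenase subunit. It had 60, 49 and 41 counts in Lake 2 against 45, 33 and 24 in River 1, a log2 ratio of -0.33 (two-sided exact permutation p = 0.2, adjusted p = 0.3). In each of the 3 regions the pools of Lake 2 and River 1 overlapped.

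A further set of energy metabolism genes, which in animals are encoded in the nucleus, was taken by name from both lists of the study. In the list for Lake 1 and River 2, 5 regions carry such names, and 5 of 5 had a lower mean CPM in River 1, with a median log2 ratio of -0.56. Of their 45 tested windows, 2 were called higher in Lake 2 by edgeR and 0 higher in River 1, beside 1.11% and 0.305% of all windows tested. Both called windows were in the region of SLC25A37, which encodes an iron transporter of the inner mitochondrial membrane. That region, named here after its values were seen, had a mean of 19.5 CPM in Lake 2 and 9.38 CPM in River 1. The regions of atp5a1, mdh1 and SLC25A37 are in both lists and so are not independent of this contrast. The Aldh2 region and the Pepck region of contig 15313 are in the former only, with overlapping sites and log2 ratios of -0.17 and -0.61. Another Pepck region, on contig 00410, is in the latter only. Of all 188 regions with a gene name in that list and off the member contigs, 76.6% were higher in Lake 2 as well, with a median log2 ratio of -0.46, and those of them that are in both lists were not left out. The direction was therefore common to most named regions. In the list for Lake 2 and River 1, which was called on these pools, 9 regions carry such names and all 9 had a lower mean CPM in River 1. The share of all named regions of that list with this direction is not given here, so these 9 are not shown to differ from the rest. The 9 regions include atp5a1, a subunit of the catalytic part of ATP synthase, with a log2 ratio of -0.68. Another is cyc1, the cytochrome c1 of the respiratory chain, with -0.62. The COX1, ATP8 and ND3 spans had the opposite sign.

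**Figure D5:**
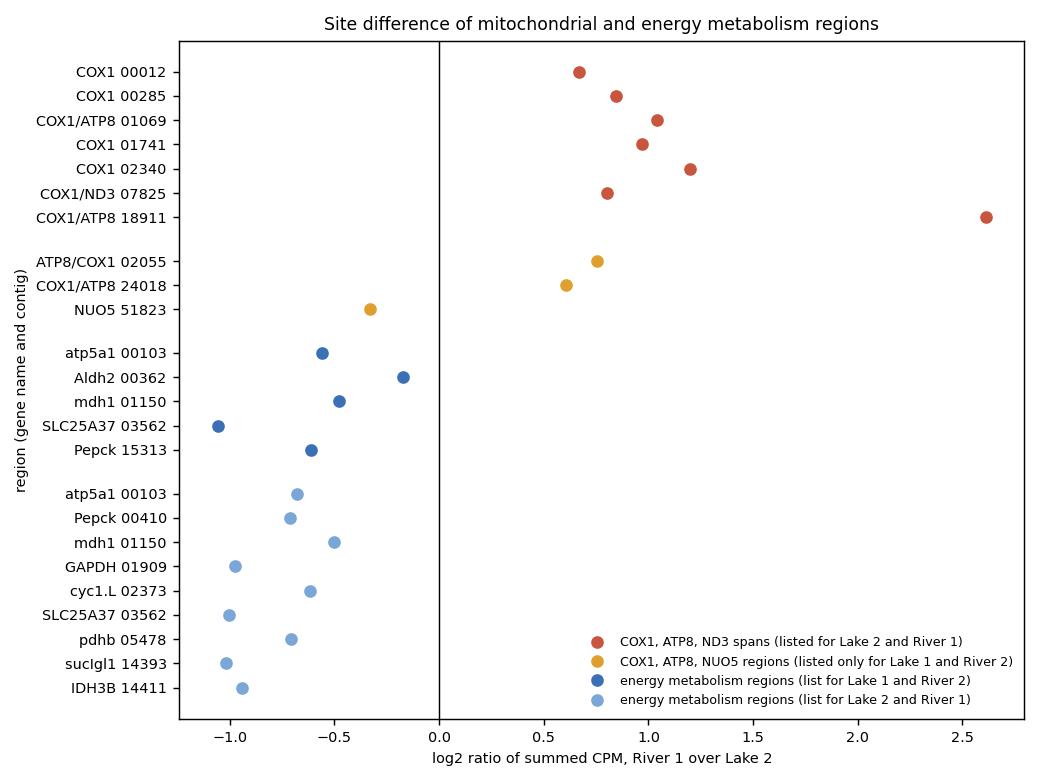
Log2 ratio of summed CPM, River 1 over Lake 2 (horizontal axis), for the 7 spans (red), the 3 regions listed only for Lake 1 and River 2 (orange) and the energy metabolism regions of each list (dark and light blue). The 7 spans lie between 0.67 and 2.61, the 2 further COX1 and ATP8 regions at 0.61 and 0.75, and the energy metabolism regions lie below 0.

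The named regions whose pattern over the pools was most like that of the spans were sought among the same 188 regions, by the Pearson correlation of log2(CPM + 0.1) with the sum of the spans over the 6 pools. The points share 2 sites, so the correlation reflects the site difference as well as the pools. The most alike was the region with the name sox2 on contig 42522, a developmental transcription factor, with r = 0.97. It was followed by Cnot6l, a deadenylase subunit, on contig 00767 with r = 0.96, and by regions with names from gene models of other species on contigs 01945, 08324 and 15731, with r = 0.95, 0.94 and 0.92. The COX1 and ATP8 regions of contigs 02055 and 24018 ranked 8 and 14 among the 188, with r = 0.91 and 0.76, beside a median of -0.72. The sox2 region had 4.99, 3.12 and 2.40 CPM in Lake 2 against 6.37, 20.3 and 13.7 CPM in River 1.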

How the data were processed

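The authors aligned MeDIP reads against a P. antipodarum transcriptome (Bowtie2, default options), sorted the alignments (SAMtools) and took coverage per 100 bp window of the joined contigs from MEDIPS. The deposited values used here are raw counts per window. Tool versions are not given in the sources used here. By default Bowtie2 places a read that matches several contigs equally well on 1 of them at random, so counts of contigs that share sequence may be split among them, which was not tested. Per-pool RPKM values (6 columns) and columns with the authors' fold changes, p-values and adjusted p-values were not used.

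Windows that reached 10 counts over the pools were tested by the quasi-likelihood method of edgeR 4.0.16 (R 4.3.3) with TMM, all 6 pools and site as the only term, with Benjamini-Hochberg adjustment over the 151608 tested windows. DESeq2 1.42.0 served as an alternative. Standard errors are those implied by the F statistic. The fit was tested on simulated data. Positions are those of the joined transcriptome, and end windows of a contig can be partly empty. Depth was 3317802 to 4994212 counts per pool, and floors cover counting error only, since the reads carry no molecular identifiers.

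The members and gene lists were chosen with earlier results of these data known. The rule for named items was the 7 contigs of the members, their highest windows and the windows at span ends, regions named COX1, ATP8, ND3 or NUO5 in the list for Lake 1 and River 2, a fixed list of energy metabolism genes, and the 5 named regions most alike in pattern. Regions on member contigs were left out of the last, and of the COX1, ATP8, ND3 and NUO5 regions of the list for Lake 1 and River 2. The labels give no batch.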

Additional observations from a re-analysis of the deposited data

How the results depend on the processing

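The log2 ratio of the summed spans kept its sign under each normalization and without each pool, from 0.73 without pool 6 to 1.11 without pool 7. That of all flanking windows ran from 0.04 to 0.28, and that of the 2 further COX1 and ATP8 regions together from 0.43 to 0.92. Each of the 7 spans stayed above 0 in the same settings. Because the spans were chosen on this contrast in these same pools, their kept sign was largely fixed in advance. Counts of called windows were less stable, and the cause was not tested. Over the whole table, edgeR called 2146 windows, 3294 when 1 count over the pools sufficed, and between 306 and 5109 without single pools, while DESeq2 called 10. In edgeR's quasi-likelihood fit, 21633 windows (14.3% of those tested) had an unadjusted p-value under 0.05. Of the member windows, 13 were called, beside 1.42% of all tested windows. The count was 20 with DESeq2's size factors, beside 1.39%, and 20 by edgeR's exact test, beside 1.73%. With library size alone it was 6, beside 1.12%, and DESeq2 called 0, beside 0.0066%. Without single pools it ran from 3, beside 0.209% without pool 6 and 0.317% without pool 9, to 27, beside 3.51% without pool 7. In the 2 further COX1 and ATP8 regions, 0 windows were called, and 1 when 30 counts were required, beside 2.34% of all windows then tested. Without single pools between 0 and 3 were called, the 3 without pool 7, beside 3.51%. The flanking windows of contig 00012 changed sign to 0.71 without pool 4, and their log2 ratio ran from -0.72 to 0.71 without single pools. Those of contig 18911, at 0.01, lay at -0.011 with library size alone and between -0.051 and 0.12 without single pools. No paired analysis was possible because the pools of the sites share no number in the labels. With 3 pools per site, an exact permutation test cannot go below 0.1.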
